A study of Mus musculus with 6 samples.

Results

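The 9 genes described here are the 5 mouse copies of the alpha-1-antitrypsin gene, Serpina1a to Serpina1e, and 4 genes of the same cluster, Serpina6, Serpina10, Serpina11 and Serpina12. They were taken by gene symbol from the deposited table, which lists 16140 genes, and all 9 were found. They were chosen by their counts and TPM in the knockout and control libraries themselves, so their differences between the groups are descriptions. Calls made over all genes are counted for them, and nothing is read from those counts. The study compared livers of Selofl/fl mice that carry Alb-Cre with livers of Selofl/fl mice without Cre. Selo, listed in the table as Selenoo, encodes a mitochondrial selenoprotein. Alb-Cre is a recombinase transgene driven by the albumin promoter, which is active in hepatocytes. Which other liver cells kept the gene was not tested. Both groups share the floxed alleles and a normal diet, the controls are labelled as having no treatment and the others as knockout, and only the knockouts carry Cre, so Cre itself and loss of Selenoo cannot be told apart. The labels used here give no strain, sex or age, nor whether the libraries came from different mice. RNA captured by its poly(A) tail from whole liver tissue was sequenced, with 3 libraries for each genotype.

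Many serpins are secreted protease inhibitors that present an exposed reactive site loop as bait and trap the protease that cuts it. Alpha-1-antitrypsin is made mainly by hepatocytes and protects tissue, the lung above all, from neutrophil elastase. Humans have a single gene for it, whereas the mouse has several near-identical copies whose products differ in the reactive site loop. Serpina6 encodes corticosteroid-binding globulin, the plasma carrier of glucocorticoids. Serpina10 encodes the protein Z-dependent inhibitor of coagulation factor Xa. Serpina12 encodes vaspin, an inhibitor of kallikrein 7 known as an adipokine.

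In RefSeq's annotation of GRCm38 the 9 genes lie between positions 103616675 and 104044443 of chromosome 12, all on the minus strand, a stretch of 427.8 kb. In order of position they are Serpina10 (chr12:103616675-103631490), Serpina6 (chr12:103646630-103657218), Serpina1b (chr12:103728156-103738189), Serpina1d (chr12:103763587-103773633), Serpina1a (chr12:103853295-103863619). They go on with Serpina1c (chr12:103894926-103904950), Serpina1e (chr12:103946931-103956897), Serpina11 (chr12:103980243-103989968) and Serpina12 (chr12:104028769-104044443). The coding sequences of the 5 Serpina1 paralogs, taken from GENCODE M21 transcripts on GRCm38, were 96.3% to 98.5% identical over the 10 pairs, with Serpina1a and Serpina1c the closest pair. The 26 pairs that involve one of the other 4 genes were 44.5% to 53.3% identical. Among 1242 aligned coding positions, 86 differed between the 5 paralogs. They were unevenly spread: the median window of 60 bases held 4 such positions, while the most variable window, centred at 91.0% of the coding sequence where the reactive site loop is encoded, held 18. That window is shown here because it is where the paralogs differ most. Capitals mark bases that differ from the one found in most of the 5 genes (the first in the alphabet where tied), and each sequence is written 5′ to 3′.
Serpina1a: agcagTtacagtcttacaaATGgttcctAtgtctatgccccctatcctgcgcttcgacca
Serpina1b: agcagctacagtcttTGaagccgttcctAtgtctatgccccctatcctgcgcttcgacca
Serpina1c: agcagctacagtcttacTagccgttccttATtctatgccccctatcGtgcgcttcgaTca
Serpina1d: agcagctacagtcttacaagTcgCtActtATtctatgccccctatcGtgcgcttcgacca
Serpina1e: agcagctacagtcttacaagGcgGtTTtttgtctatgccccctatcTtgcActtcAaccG
Serpina1e carried the most such bases in this window, 8 of 60, and Serpina1b the fewest, 3.

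The paralogs also shared long stretches exactly. Of all windows of 100 bases in the transcript with the longest coding sequence, 58.5% were found unchanged in a transcript of another paralog for Serpina1c, 47.4% for Serpina1a, 26.3% for Serpina1d, 19.2% for Serpina1b and 14.8% for Serpina1e. With windows of 150 bases the share for Serpina1e was 7.57% and for Serpina1c 50.5%. None of the windows of Serpina6, Serpina10, Serpina11 or Serpina12 occurred in a Serpina1 transcript. The deposited estimated counts of all 5 Serpina1 genes were more than 0.001 from a whole number in all 6 libraries, whereas those of the other 4 genes were whole in all 6. The level of a single copy therefore depends on how reads were divided among copies and is uncertain to that extent, while the sum of the 5 depends on it less. The deposited rows of Serpina1b and Serpina1d also join a copy on a separate scaffold with the one on chromosome 12, so the RefSeq positions are given for them.

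**Figure D1:**
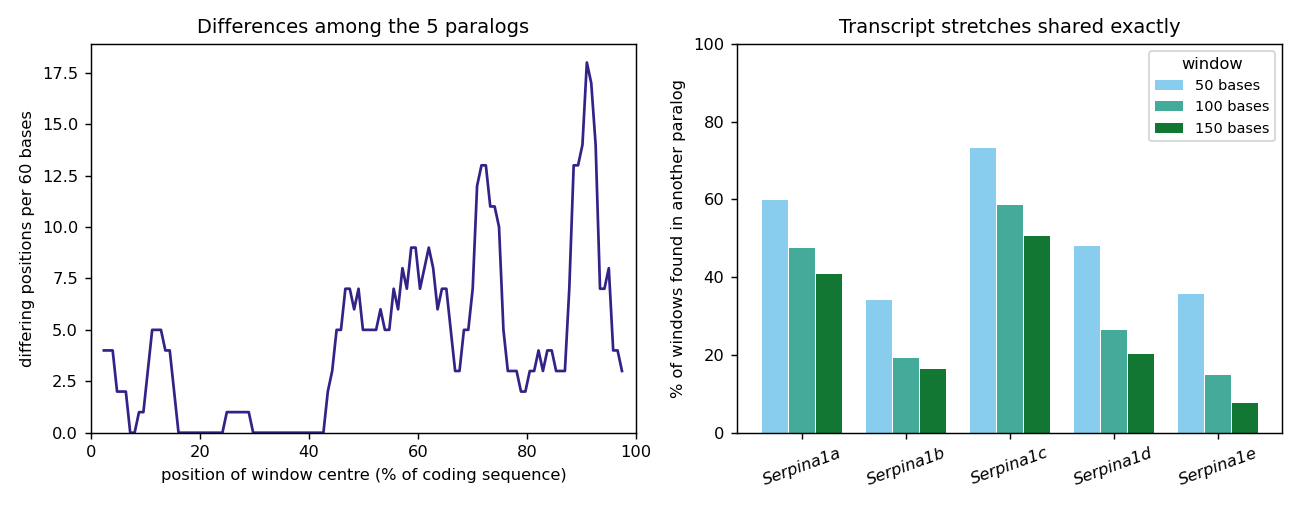
Sequence similarity of the 5 Serpina1 paralogs. Left, the number of positions that differ among them in sliding windows of 60 coding bases, which peaks at 18 near the end of the coding sequence. Right, the percent of transcript windows of 50, 100 or 150 bases found exactly in another paralog, highest for Serpina1c and, at 100 and 150 bases, lowest for Serpina1e.

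The promoters of the 5 paralogs were nearly the same as well. RefSeq's promoter sequences on GRCm38.p6, which run from 250 bases before to 50 bases after each annotated start, were found for 7 of the 9 genes. The stretch that the 5 Serpina1 promoters share spans 241 aligned positions, of which 211 were identical in all 5, and the 10 pairs were 92.0% to 98.3% identical. It is shown because the 5 genes differed from each other between the groups. The sequences are on the minus strand, 5′ to 3′, with capitals for bases that differ from the majority.
Serpina1a (chr12:103863575-103863812): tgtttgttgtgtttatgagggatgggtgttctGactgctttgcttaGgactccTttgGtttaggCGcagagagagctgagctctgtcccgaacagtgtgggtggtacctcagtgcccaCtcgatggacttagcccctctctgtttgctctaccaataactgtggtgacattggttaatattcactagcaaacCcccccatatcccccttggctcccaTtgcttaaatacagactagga
Serpina1b (chr12:103738150-103738389): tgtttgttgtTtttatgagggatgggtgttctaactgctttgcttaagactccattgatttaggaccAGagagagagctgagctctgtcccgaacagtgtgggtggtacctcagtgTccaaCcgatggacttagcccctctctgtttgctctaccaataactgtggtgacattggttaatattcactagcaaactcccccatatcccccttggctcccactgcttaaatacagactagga
Serpina1c (chr12:103904912-103905149): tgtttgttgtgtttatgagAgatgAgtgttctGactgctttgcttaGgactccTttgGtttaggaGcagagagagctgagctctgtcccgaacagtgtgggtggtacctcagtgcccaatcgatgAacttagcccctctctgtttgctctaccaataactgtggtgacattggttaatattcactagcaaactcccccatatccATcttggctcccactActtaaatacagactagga
Serpina1d (chr12:103773584-103773822): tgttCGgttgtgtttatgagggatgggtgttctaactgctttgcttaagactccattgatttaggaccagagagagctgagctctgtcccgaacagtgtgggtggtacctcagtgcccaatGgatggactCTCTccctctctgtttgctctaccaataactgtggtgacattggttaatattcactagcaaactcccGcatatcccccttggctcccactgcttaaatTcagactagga
Serpina1e (chr12:103956910-103957147): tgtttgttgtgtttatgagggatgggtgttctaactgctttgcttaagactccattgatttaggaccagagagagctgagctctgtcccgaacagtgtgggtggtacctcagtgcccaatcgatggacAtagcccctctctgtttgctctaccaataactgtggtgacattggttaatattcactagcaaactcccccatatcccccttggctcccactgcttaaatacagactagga
Serpina1e had 1 base off the majority here, Serpina1b 5, Serpina1a and Serpina1d 9 each, and Serpina1c 11. The annotated starts differ, so that the stretch ends 13 bases before the start of Serpina1e and between 38 and 49 bases after the start of the other 4. The letters TTCNNNGAA, bound by STAT factors, were found on either strand in 8.47% of 27025 promoters of the same length, in that of Serpina11 and in none of the 5 Serpina1 promoters. The letters CCAAT, a common promoter box, were found in all 5 and in 37.9% of all promoters, and TATAAA in none of the 5 and in 14.2% of all. A match describes letters only.

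Library totals ran from 15550289 to 18680195 estimated counts, and 12173 genes, all 9 members among them, had enough counts to be tested. The targeted gene, Selenoo, had 1413, 1630 and 1852 counts in control livers and 117, 163 and 135 in knockout livers, a log2 fold change of -3.56 ± 0.17 (SE). In a principal component analysis of 1000 genes the first axis separated the genotypes, and control replicate 1 stood apart on the second at 19.4, with the other 5 libraries between -12.4 and 5.75. Control replicate 3 correlated less with control replicate 1 (r = 0.9695 of log2 CPM across genes, which are not independent replicates) than with any knockout (at least 0.9758). All 11 hepatocyte markers in the table were tested and none differed in edgeR's quasi-likelihood test, also not at an unadjusted p under 0.05 or in DESeq2, where 0 were called. Their summed level was 145877 to 174254 TPM (reads per transcript length, scaled to the same total in every library) in controls and 140336 to 161624 TPM in knockouts. A set of 4 Y-linked genes together had 1255 to 1419 counts in every library, so every library held RNA from male tissue.

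The 5 alpha-1-antitrypsin genes together were among the most abundant transcripts of the liver and their sum was similar in both groups, but the mixture differed. Serpina1e and Serpina1a made up more of the sum in knockout livers, Serpina1b and Serpina1d less, and Serpina1c remained the most abundant or close to it. The summed level was 35783, 49527 and 47493 TPM in control livers and 47993, 45719 and 54038 TPM in knockout livers. The groups overlapped, with the lowest control library below all others and the highest knockout library above all others. The means were 44268 ± 7418 (SD, n = 3) and 49250 ± 4300 TPM (SD, n = 3), which was 4.43% and 4.92% of all TPM. With the 5 counts added into one before fitting, the log2 fold change was 0.13 ± 0.17 (SE), less than its error. In bulk tissue, a different number of cells of one type and a different amount of RNA per cell cannot be told apart, here and in every result that follows.

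Serpina1e, which is known in mice as a copy with higher expression in males, differed most. Its level was 2865, 5958 and 3255 TPM in control livers and 12496, 10404 and 15508 TPM in knockout livers. All knockouts lay above all controls, and control replicate 2 was the highest control. The log2 fold change was 1.67 ± 0.27 (SE), or 3.18-fold, and its SD of log2 CPM was 0.49 among controls and 0.31 among knockouts. Serpina1e ranked 29th of all genes by mean TPM in controls and 10th in knockouts.

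Serpina1a had the lowest mean of the 5 in both groups, although Serpina1e was below it in control replicate 3. It had 2689, 3145 and 3366 TPM in control livers and 5980, 5527 and 6323 TPM in knockout livers. The groups were well apart, and each was tight, with the highest control only 1.25 times the lowest. The log2 fold change was 0.94 ± 0.15 (SE), or 1.92-fold.

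Serpina1d and Serpina1b were lower in knockouts. Serpina1d had 7261, 9980 and 10361 TPM in control livers and 6166, 6494 and 6840 TPM in knockout livers, a log2 fold change of -0.63 ± 0.15 (SE). That fold change was fitted on counts, and a fit on log2(TPM + 1) gave -0.48. Serpina1b had 10318, 13122 and 14769 TPM in control livers and 8727, 8933 and 9864 TPM in knockout livers, a log2 fold change of -0.48 ± 0.16 (SE). In both, the groups did not overlap, and the nearest libraries, control replicate 1 and knockout replicate 3, were close. In TPM the ratio of the pair stayed nearly constant: Serpina1b was 1.31 to 1.44 times Serpina1d in all 6 libraries. In estimated counts it did not, and the ratio was higher in every knockout than in every control. For example, the counts were 173405 to 134585 in control replicate 1 and 151097 to 111509 in knockout replicate 2. The constancy therefore depends on the measure.

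Serpina1c, the most abundant copy in 5 of 6 libraries, had 12649, 17322 and 15741 TPM in control livers and 14626, 14360 and 15502 TPM in knockout livers. The knockouts lay inside the range of the controls, and the log2 fold change was -0.05 ± 0.16 (SE).

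**Figure D2:**
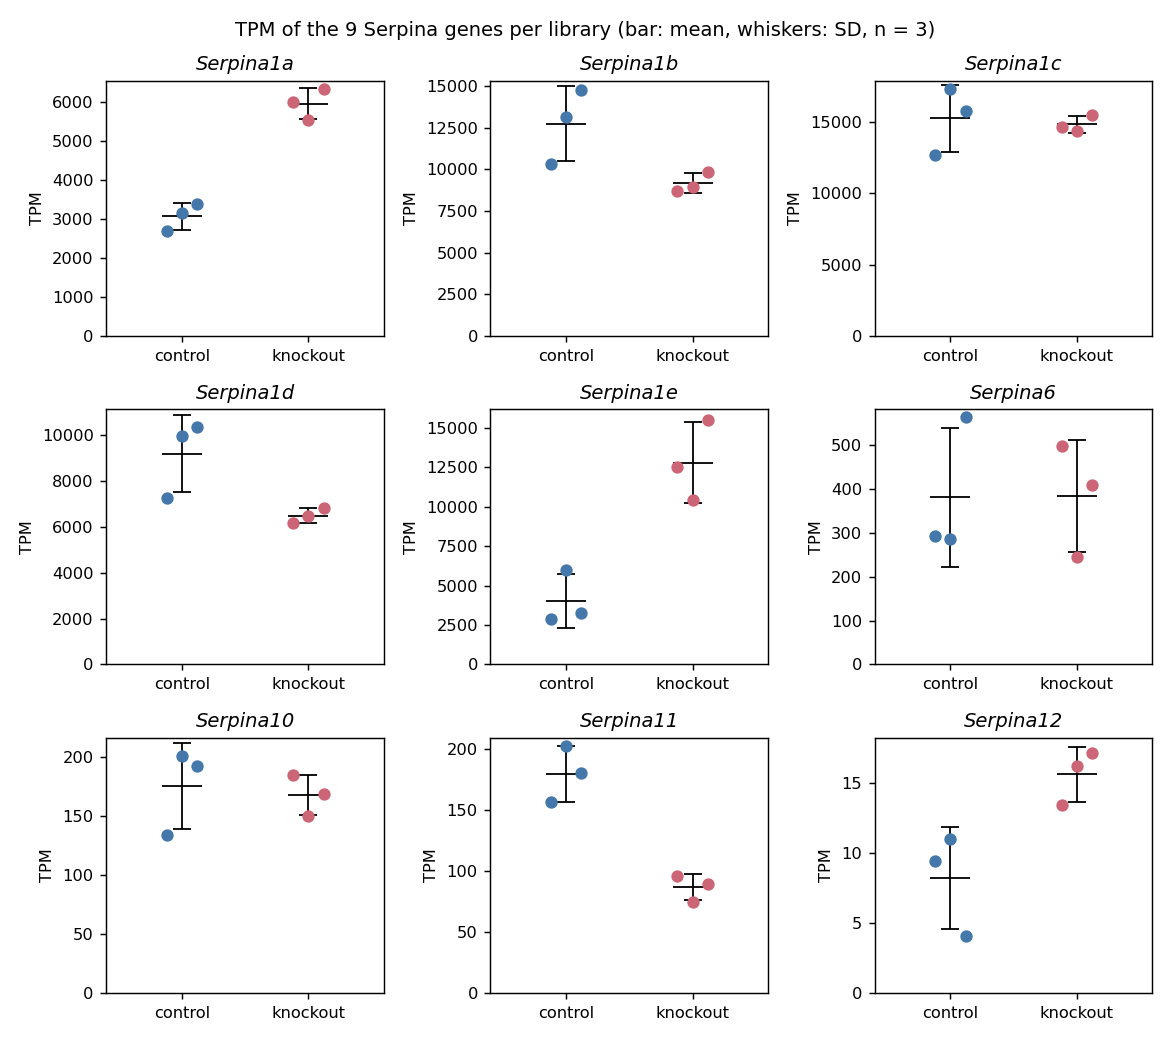
Level of each of the 9 genes in TPM (vertical axes from 0, scaled per gene) in 3 control and 3 knockout libraries, with the mean as a bar and the SD as whiskers. The groups are apart in Serpina1a, Serpina1b, Serpina1d, Serpina1e, Serpina11 and Serpina12 and overlap in Serpina1c, Serpina6 and Serpina10.

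Expressed as shares of the summed TPM, Serpina1e made up 8.01%, 12.03% and 6.85% in control livers and 26.04%, 22.8% and 28.7% in knockout livers. The mean share was 8.96% ± 2.72 (SD, n = 3) against 25.8% ± 2.98 (SD, n = 3). Serpina1a went from 6.98% ± 0.59 to 12.1% ± 0.38 (SD, n = 3), and its 3 values within each group were nearly the same. The share of Serpina1b was 28.8% ± 2.30 in controls and 18.66% ± 0.76 in knockouts (SD, n = 3), and that of Serpina1d 20.8% ± 0.92 and 13.2% ± 0.84 (SD, n = 3). Serpina1c held 34.5% ± 1.18 and 30.2% ± 1.38 (SD, n = 3). Together Serpina1b and Serpina1d accounted for 46.6% to 52.9% of the sum in controls and 30.9% to 33.7% in knockouts, while Serpina1a and Serpina1e went from 13.9% to 18.4% up to between 34.8% and 40.4%. In TPM, the mean of Serpina1a plus Serpina1e was 11653 higher in knockouts and that of Serpina1b plus Serpina1d was -6263, counted as knockout minus control. The closest pair by sequence, Serpina1a and Serpina1c, also changed in ratio: Serpina1a was 0.182 to 0.214 times Serpina1c in controls and 0.385 to 0.409 times in knockouts.

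**Figure D3:**
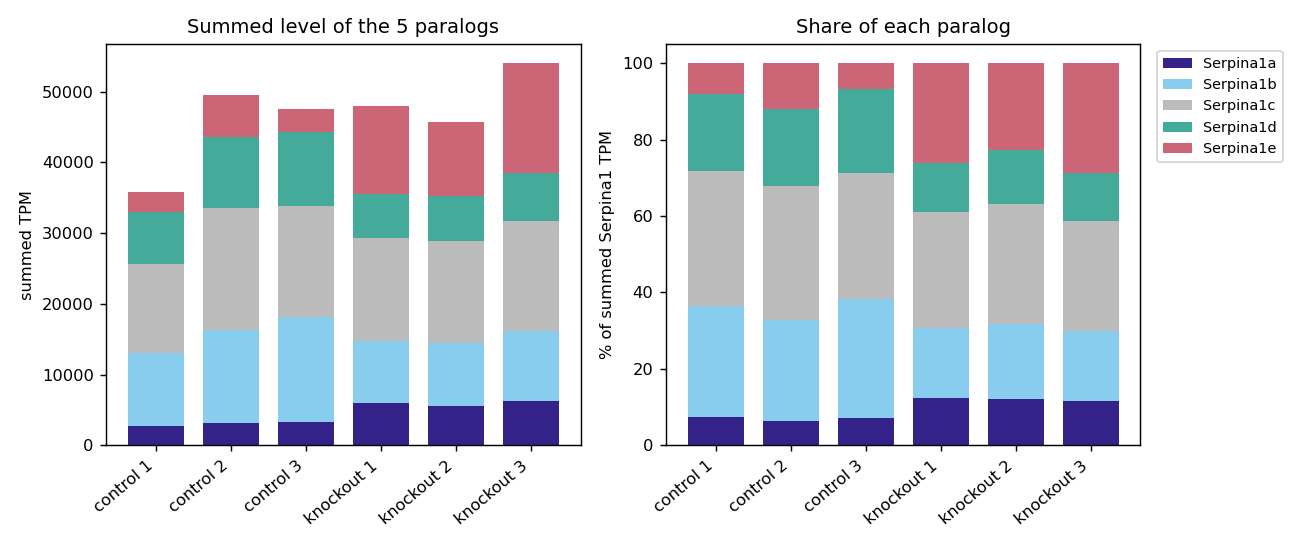
The 5 Serpina1 paralogs in each of the 6 libraries, stacked as TPM (left) and as percent of their summed TPM (right). The total overlaps between groups, while the Serpina1e segment takes 6.85% to 12.03% of it in controls and 22.8% to 28.7% in knockouts.

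The order of the paralogs changed with it. In controls it was Serpina1c, Serpina1b and Serpina1d in every library, followed by Serpina1e and Serpina1a, which overlapped in range. In knockouts Serpina1e had moved up beside Serpina1c, with overlapping ranges, and was the highest of the 9 in knockout replicate 3. Serpina1b followed, and then Serpina1d and Serpina1a, whose ranges overlapped although Serpina1d was above Serpina1a in all 3 knockouts. The 4 other genes were far lower: Serpina6 was the highest of them in every library, and Serpina12 the lowest.

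Serpina11, a serpin of the same clade, had the most negative log2 fold change of the 9 genes. It had 156, 202 and 181 TPM in control livers and 96.2, 74.9 and 89.2 TPM in knockout livers. The groups were far apart, with a log2 fold change of -1.08 ± 0.14 (SE), or 2.11-fold lower. In controls it ranged over the same levels as Serpina10, and in knockouts it lay below Serpina10 in all 3 libraries.

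Serpina12 was the least abundant, with 9.46, 11.03 and 4.07 TPM in control livers and 13.4, 16.2 and 17.1 TPM in knockout livers. The groups did not overlap, and control replicate 3 was far below the other controls. The log2 fold change was 0.89 ± 0.34 (SE) and went to 0.53 without control replicate 3. Its counts were 198 to 864 per library.

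Serpina6 and Serpina10 showed no shift between the groups beyond the spread of the libraries. Serpina6, the glucocorticoid carrier, had 293, 286 and 564 TPM in control livers and 498, 245 and 409 TPM in knockout livers. Its values were spread over a 2.30-fold range that both groups filled, with a log2 fold change of 0.0061 ± 0.28 (SE). Serpina10, the factor Xa inhibitor, had 134, 201 and 193 TPM in control livers and 185, 151 and 169 TPM in knockout livers, a log2 fold change of -0.07 ± 0.14 (SE). The knockouts again lay inside the range of the controls.

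Counted over the 9 genes, 6 had groups that did not overlap in CPM (counts scaled by library size), 3 higher and 3 lower, where 25.2% of all tested genes had such groups. In edgeR's quasi-likelihood test with Benjamini-Hochberg adjustment over all genes, 3 of the 9 passed an adjusted p of 0.05, against 1.49% of all genes tested. Serpina1a and Serpina1e were the 2 higher (0.772% of all genes were called higher) and Serpina11 the 1 lower (0.715% lower). By the q value of the authors' deposited table, 5 of the 9 were called, with a q value under 0.05, against 3.47% of its 16125 genes with a value, namely these 3 and, both lower, Serpina1b and Serpina1d. The authors' deposited table gives log2 fold changes of 1.67 for Serpina1e, 0.94 for Serpina1a, -1.07 for Serpina11, -0.63 for Serpina1d and -0.48 for Serpina1b. Since the genes were chosen with this contrast in view, nothing is read from these counts. The number of members called also changed when a single library was left out, as did the number of all genes called (43 to 668, against 181 with all libraries). With one control left out edgeR called 4 members (replicate 1 left out), 2 (replicate 2) and 3 (replicate 3), and with one knockout left out 1, 0 and 1.

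Along the chromosome, genes that were higher and genes that were lower in knockouts lay side by side. Within 500000 bases on either side of the cluster, a window set after the data were seen, 24 genes were tested. Of the 7 that are not Serpina genes 1 passed, Ifi27l2b, a member of an interferon-inducible family, at 1.64 ± 0.30 (log2, SE; edgeR adjusted p = 0.0345), and the other 6 had log2 fold changes between -0.70 and 0.15. Serpina9, the gene between Serpina11 and Serpina12, was at 1.46 TPM in controls and 0.95 TPM in knockouts (-0.65 ± 0.32, log2 and SE; edgeR adjusted p = 0.314).

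**Figure D4:**
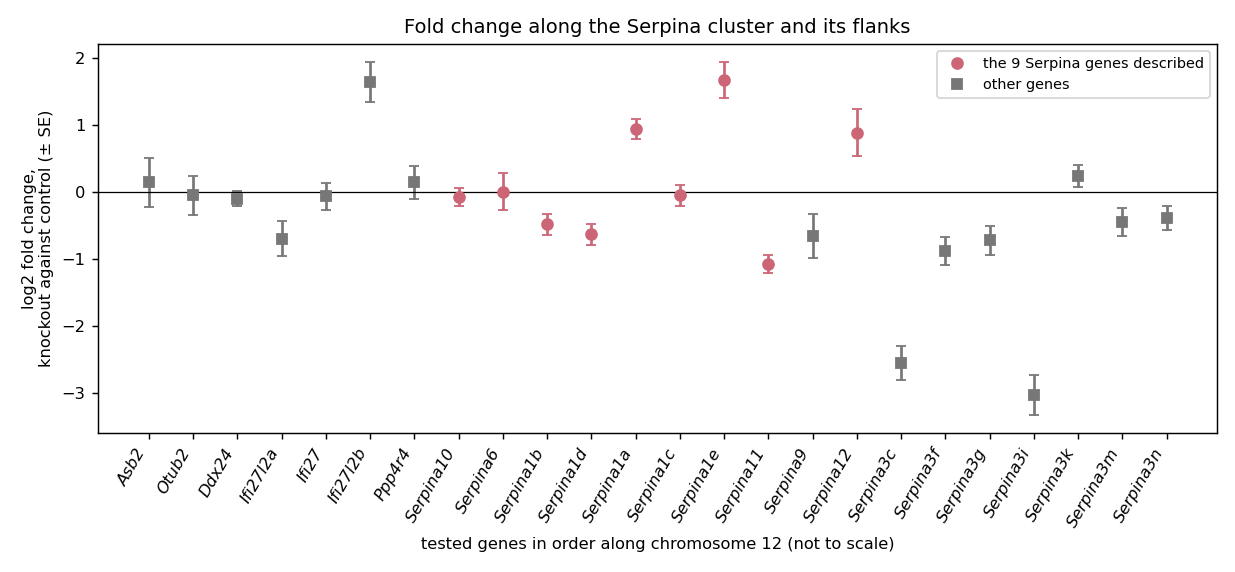
Log2 fold change, knockout against control, with its SE (vertical axis) for the 24 tested genes in and around the cluster, in chromosomal order but not to scale. Serpina1e (1.67) and Serpina11 (-1.08), next to each other, lie on opposite sides of 0.

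Of 15 further clade A serpins in a list, 9 were tested and 2 fell, both members of the neighbouring Serpina3 family of antichymotrypsin-like genes, which are also similar to each other in sequence. Serpina3c went from 17.6 ± 3.32 to 3.11 ± 0.36 TPM (SD, n = 3), with a log2 fold change of -2.55 ± 0.25 (SE) and an edgeR adjusted p of 0.00435. Serpina3i went from 4.10 ± 1.59 to 0.46 ± 0.19 TPM (SD, n = 3), a log2 fold change of -3.03 ± 0.30 (SE) with the same adjusted p. Over the 9 the median log2 fold change was -0.72, against -0.02 over all genes tested. Its most abundant gene, Serpina3k, had 9820 ± 1920 TPM in controls and 11558 ± 662 in knockouts (SD, n = 3) and did not pass (0.24 ± 0.16, log2 and SE; edgeR adjusted p = 0.453). Of 13 tested serpins of other clades 1 rose, Serpine2, which encodes the thrombin and plasminogen activator inhibitor protease nexin 1. It went from 2.18 ± 1.08 to 9.35 ± 2.92 TPM (SD, n = 3; edgeR adjusted p = 0.0225). The call was lost without knockout replicate 2 or 3, and the median of these 13 was -0.03.

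The regulators known to drive alpha-1-antitrypsin genes in hepatocytes did not pass. Of 17 liver transcription factors and genes of interleukin 6 signalling, all tested, 0 were called in edgeR, and their median log2 fold change was 0.14. At an unadjusted p under 0.05 there were 2, against 18.5% of all genes tested. DESeq2 called 1 of the 17, against 634 over all genes. Cebpb, a factor of the acute phase response, had 241 ± 51.5 and 382 ± 61.3 TPM (SD, n = 3; 0.64 ± 0.17, edgeR adjusted p = 0.0957) and was the gene that DESeq2 called (adjusted p = 0.00891).

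Secretory glycoproteins such as alpha-1-antitrypsin fold in the endoplasmic reticulum with the help of lectin chaperones. Of 18 genes of glycoprotein folding and export 1 fell, Calr, which encodes the chaperone calreticulin, from 634 ± 138 to 360.0 ± 56.2 TPM (SD, n = 3; -0.83 ± 0.16, edgeR adjusted p = 0.0413). DESeq2 called 3 of the 18, all lower. Beside Calr they were Pdia3 (-0.77 ± 0.16) and Syvn1 (-0.90 ± 0.19), log2 and SE from edgeR, where the adjusted p of both was 0.0516. The list's median was 0.07, with 11 fold changes positive and 7 negative. Lman1 and Mcfd2, the cargo receptor that carries alpha-1-antitrypsin out of the endoplasmic reticulum, were not called. Among 8 tested proteases and partners of these serpins 1 fell, the chaperone gene Hspa5 (-1.11 ± 0.18, edgeR adjusted p = 0.0241), and the median was 0.12. F10, the target of the Serpina10 product, had 228 ± 7.38 and 255 ± 8.44 TPM (SD, n = 3), and Proz, its cofactor protein Z, 173 ± 9.97 and 173 ± 0.41 TPM (SD, n = 3). The adjusted p of both was at least 0.613 in edgeR. Calr and Hspa5 lost their calls without control replicate 2 or any one knockout replicate, where edgeR called 0 genes of either list, as under the replicate block and in limma on TPM.

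Because Serpina1e is a male-biased gene in mouse liver, genes with a sex bias were listed beside it. Of 15 male-biased genes other than Serpina1e 14 were tested and 13 had a positive fold change. None passed over all genes in edgeR, 11 had an unadjusted p under 0.05 with positive fold changes, against 18.5% of all genes tested, and DESeq2 called 3. Their median log2 fold change was 0.83, and their summed level was 4007 to 8055 TPM in controls and 9293 to 10355 TPM in knockouts, without overlap. Gstp1 alone made up most of that sum, so the sum says little about the rest of the list. It had 3895, 5687 and 2526 TPM in control livers and 7335, 6816 and 6691 TPM in knockout livers. Cyp7b1, an enzyme of oxysterol and steroid breakdown, had 20.4, 39.0 and 17.3 TPM in control livers and 59.8, 129 and 67.7 TPM in knockout livers (1.74 ± 0.37, log2 and SE; edgeR adjusted p = 0.0553). C6, a component of the complement membrane attack complex, had 43.4, 106 and 58.3 TPM against 153, 131 and 125 TPM (0.98 ± 0.25; edgeR adjusted p = 0.0887). In both, as in Serpina1e, control replicate 2 was the highest control. Of 7 tested female-biased genes 0 passed in edgeR or DESeq2, and the median was -0.75. At an unadjusted p under 0.05 there were 4, against the same 18.5% of all genes, 3 of them lower in knockouts and 1 higher. The higher one was Cyp2a4, a steroid hydroxylase, at 17.0 TPM in controls and 117 TPM in knockouts on average (2.75 ± 0.99, log2 and SE), with overlapping groups. Of 10 genes of growth hormone signalling, the pathway that sets sex-biased expression in liver, 0 passed in edgeR and 1 had an unadjusted p under 0.05, Socs2, a feedback inhibitor of the receptor, which had 50.5 ± 19.3 TPM in controls and 24.5 ± 1.67 in knockouts (SD, n = 3; -1.01 ± 0.29, edgeR adjusted p = 0.117). DESeq2 called Socs2 alone among them (adjusted p = 0.0147), and the median of the 10 was 0.20. The part of these genes in the difference of Serpina1e was not tested.

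Genes that behaved most like Serpina1e and Serpina11 over the 6 libraries were sought among 3210 genes with a mean log2 CPM of at least 5, by the root mean square difference of log2 CPM after centring each gene on its mean. The nearest to Serpina1e was Tat, which encodes tyrosine aminotransferase, at a difference of 0.11 on the log2 scale. Tat was also highest among controls in replicate 2 and highest of all in knockout replicate 3, as Serpina1e was. Fbf1 (0.37) and C6 (0.39) came next. The nearest to Serpina11 were Tuba4a, a tubulin gene (0.09), Hspa5 (0.13) and Xbp1, a transcription factor of the unfolded protein response (0.14). For the sum of the 5 paralogs the nearest were Lgals8, Degs1 and Matr3, at 0.05 to 0.06. A likeness over 6 libraries that fall into 2 groups is a description.

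**Figure D5:**
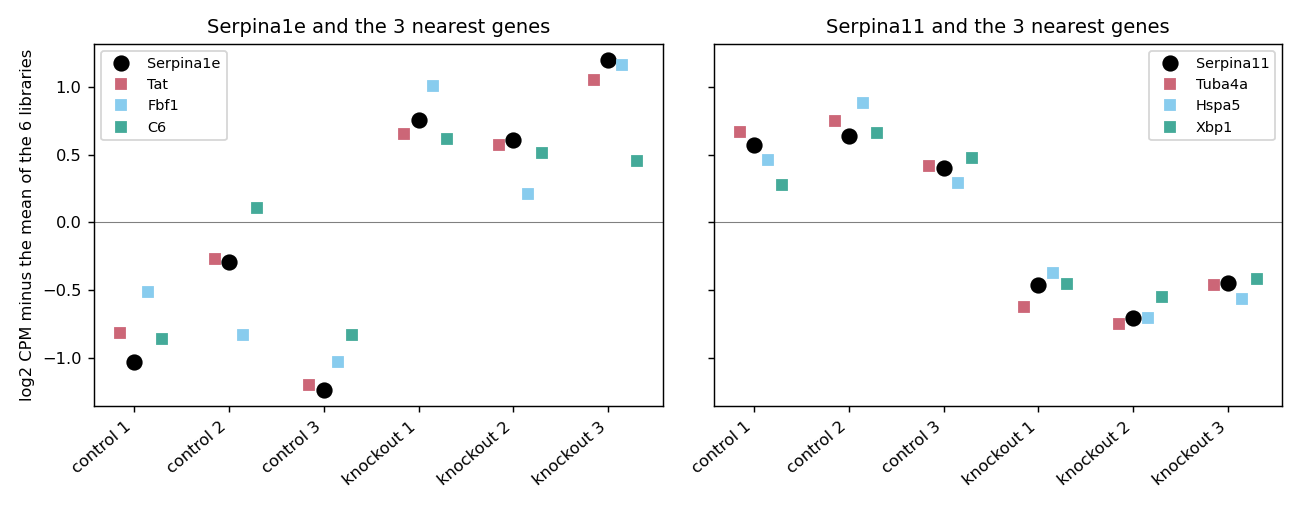
Log2 CPM minus each gene's mean over the 6 libraries (vertical axis) for Serpina1e (left) and Serpina11 (right) in black, each with its 3 nearest genes in colour, offset sideways for legibility. Tat lies within a root mean square difference of 0.11 of Serpina1e, and Tuba4a within 0.09 of Serpina11.

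Markers of other cells were set beside these results. The 9 neutrophil markers in the table summed to 8.55 to 14.5 TPM in controls and 4.28 to 6.97 TPM in knockouts, without overlap. Of these, Mpo, Ltf and Cxcr2 were at no more than 0.13 TPM in any library. S100a8 and S100a9 made up most of the sum. S100a8 did not overlap between the groups, with 2.38, 3.72 and 5.88 TPM in control livers and 1.0, 1.0 and 1.96 TPM in knockout livers. S100a9 overlapped between the groups, with 4.56, 10.1 and 4.68 TPM in control livers and 5.26, 2.33 and 2.04 TPM in knockout livers. It was the 1 tested, with 0 called in edgeR or DESeq2 (1 at an unadjusted p under 0.05). Summed levels of 10 macrophage markers were 329 to 591 and 361 to 449 TPM, of 8 cholangiocyte markers 32.3 to 55.7 and 48.1 to 51.9 TPM, and of 7 stellate cell markers 137 to 190 and 130.4 to 163 TPM, with overlapping groups and 0 called in either edgeR or DESeq2. All 10 macrophage markers had negative fold changes, with a median of -0.26, and the 3 with an unadjusted p under 0.05 were C1qa, Marco and Cd68. At that level, reached by 18.5% of all genes tested, 0 cholangiocyte markers and 1 stellate cell marker, lower in knockouts, were found. The 7 endothelial markers summed to 179 to 188 TPM in controls and 153 to 173 TPM in knockouts, and 1 fell, Lyve1, a hyaluronan receptor of sinusoidal endothelium (-1.15 ± 0.18, edgeR adjusted p = 0.0196). The 6 adipocyte markers, of a tissue in which vaspin is known, summed to 33.3 to 74.4 and 22.6 to 40.5 TPM and the 6 pancreas markers to 6.39 to 30.7 and 11.2 to 14.6 TPM, with 0 called by either tool and 2 and 1 at an unadjusted p under 0.05. Adipoq was at 2.88 TPM in control replicate 2, 0.51 in knockout replicate 1 and 0 in the other 4 libraries, and Amy2a5, a pancreatic amylase, was at 8.11 TPM in control replicate 3 and at most 0.05 elsewhere. The part of these markers in the results for the 9 genes was not tested.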

How the data were processed

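TRIzol extracts of ground liver were used, per the labels' protocols; poly(A) RNA was captured on oligo(dT) beads, and randomly primed cDNA was amplified. HISAT2, Bowtie2, RSEM 1.3.1 and build GRCm38 are named in the submitters' processing notes; for trimming and strand, "not given in the sources used here" applies. The authors deposited, per the file headers, estimated counts, TPM and FPKM per gene and library, and a DESeq2 comparison with log2 fold changes and q-values. FPKM was not used. Columns were matched by group and number; they call the controls WT.

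Estimated counts were rounded (4.55% to 4.98% per library were over 0.01 from whole). The floor of 3 counts equals 0.161 to 0.193 CPM and, since PCR reads are not independent molecules, reflects counting error alone. All pairs of libraries differed by more than sampling noise (lowest chi-square per degree of freedom 20.01). Genes were filtered with filterByExpr, scaled with TMM and tested with edgeR 4.0.16 in R 4.3.3, genotype only, Benjamini-Hochberg at 0.05. Nothing in the labels says the libraries are separate mice, so p-values reflect only the spread among these libraries, which may be technical. Standard errors came from the F statistic. On simulated counts with 200 changed genes among 12071, the test recovered 69.4% at a log2 change of 1 and 99.0% at 2. For the sum, the 5 Serpina1 rows were replaced by one.

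The members, the lists (hepatocyte and other cell markers, serpins, regulators, folding, partners, growth hormone and sex-biased genes) and the rule for named genes (all members; of each list those called, otherwise those with the smallest p; the 3 nearest genes by likeness) were chosen with earlier results of these data known. Some further list members were named for their level or role after their values were seen. Alternatives were other scalings and filters, a replicate block, each library left out, DESeq2 1.42.0, and limma 3.58.1 on log2(TPM + 1) or log2(TPM + 0.1). One listed regulator is not reported here by name.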

Additional observations from a re-analysis of the deposited data

How the results depend on the processing

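The number of genes called, 181, was 330 without a low-count filter, 634 with DESeq2, 79 and 83 with limma on log2(TPM + 1) and log2(TPM + 0.1), and 43 to 668 with one library left out. Of the 9 members 3 were called, 5 with DESeq2 and 0 to 4 with one library left out. The same-numbered libraries did not deviate together (r = -0.16, -0.08 and -0.08 over 12173 genes, and no control correlated best with the knockout of its own number). No pairing by number was seen, although 3 libraries per group are too few to exclude a weak one. With the replicate number as a block 87 genes and 0 members were called, and Serpina1a (0.94), Serpina1e (1.71) and Serpina11 (-1.08) lost their calls. DESeq2 added calls for Serpina1b (-0.48) and Serpina1d (-0.63). The log2 fold change of the Serpina1 sum was 0.03 to 0.19 with one library left out and 0.09 to 0.16 under the other 9 alternatives. The Serpina1e share was 15.4 to 18.4 percentage points higher in knockouts with one library left out (16.9 with all), and 15.9 as a share of counts. Among members, Serpina6 changed sign with upper-quartile scaling (-0.029) and ran from -0.18 to 0.29 with one library left out, and Serpina1c ran from -0.11 to 0.0081; neither was called. Serpina1e ran from 1.48 to 2.002, Serpina1a from 0.87 to 0.98, Serpina1d from -0.69 to -0.55, Serpina11 from -1.14 to -0.99 and Serpina12 from 0.53 to 1.14, each with one library left out. With limma on log2(TPM + 1) Serpina1d was at -0.48, outside its range on counts. Of the lists, folding and export had 1 call, 0 under the block and both limma fits, 2 with upper-quartile scaling, 3 without a filter and with DESeq2, and 0 to 3 with one library left out. Proteases and partners had 1, 0 under the block and both limma fits, and 0 to 1 with one left out. Male-biased genes had 0, 2 under the block, 3 without a filter and with DESeq2, and 0 to 2 with one left out. DESeq2 called 2 serpins of other clades (0 to 2 with one left out), 1 regulator and 1 growth hormone gene (0 to 1). Other clade A serpins had 2 to 4 calls and female-biased genes 0 to 1 with one left out. The cause of these shifts was not tested. The lowest count of a member in a library was 198, and the part of depth in the calls was not tested.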
